A study of Rattus norvegicus with 4 samples.

Results

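Fatty acids are a main fuel of the heart. They enter the cell through membrane proteins such as CD36, are activated to acyl-CoA by synthetases, cross into the mitochondrion as carnitine esters, and are shortened there by repeated rounds of beta-oxidation, whose electrons pass through the electron transfer flavoprotein to the respiratory chain. Nuclear receptors of the PPAR family and their coactivators set the level of many of these genes. The 34 genes described here cover this route from uptake to electron transfer and its best known regulators, and were chosen by symbol. All 34 had a row among the 31038 gene rows of each count file.

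The counts are ribosome footprints, the RNA fragments that ribosomes shield from digestion. They reflect both the amount of each mRNA and its loading with ribosomes, which these counts cannot tell apart. They do not measure translational efficiency. The si3m group received an siRNA against eIF3m, a subunit of the initiation factor eIF3, and the siNT group received a control siRNA, with 2 libraries each. Both groups were cultured rat myocardial cells, labelled NRVM and described in the labels as derived from embryonic myocardium. No stress, drug or allele distinguishes the groups in the labels, which also leave unsaid whether replicate libraries stem from different cultures. The spread behind each p-value may therefore be technical.

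Total counts were 8687598 and 6726969 in si3m and 3924434 and 3835750 in siNT, so depth differed with group. Eif3m had 1168 and 1232 counts in si3m, against 2136 and 1774 in the shallower siNT libraries, and was 3.01-fold lower (log2 -1.59, SE 0.111, edgeR adjusted p = 3.41e-08; adjusted p = 0.0522 with robust quasi-likelihood). Of 22 cardiomyocyte markers, 6 had enough counts to be tested, 1 of them higher and 4 lower, and Tnni3, Myl7 and Nppa were at 0 in every library. Their summed level was 599 and 617 CPM (counts scaled by the library total) in si3m and 1014 and 975 CPM in siNT, and 130 and 155 CPM in si3m and 155 and 162 CPM in siNT once Atp2a2, a calcium pump also made outside muscle, was left out. The 12 fibroblast markers summed to 15952 and 15713 CPM in si3m and 12017 and 11938 CPM in siNT, with 7 of 9 tested members higher and 1 lower. Without Col1a1 the sums were 9289 and 9284 CPM in si3m and 8074 and 8093 CPM in siNT. Tcf21 was at 0 throughout, and Dcn, Lum and Pdgfra had at most 24 counts in any library. The 6 smooth muscle markers summed to 3579 and 3590 CPM in si3m and 3263 and 3236 CPM in siNT, with 1 higher and 1 lower. Without Acta2 the direction turned, with 670 and 701 CPM in si3m and 837 and 842 CPM in siNT. Macrophage markers summed to 15.4 and 15.2 CPM in si3m and 32.1 and 36.5 CPM in siNT. Without Cd14 they summed to 1.38 and 0.892 CPM in si3m and 10.2 and 13 CPM in siNT. Endothelial markers summed to at most 5.74 CPM and adipocyte markers to at most 0.595 CPM. The footprints thus carried little of the contractile program that the label names, and shifts of the marker sums between groups accompany each result below. Their part in those results was not tested. In such bulk libraries fewer cells of a type and less RNA per cell cannot be told apart.

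Of the 34 genes, 29 had enough counts to be tested. In si3m 4 rose (Acsl3, Acsl4, Hadhb and Decr1), 4 fell (Hadha, Acadsb, Acot2 and Etfdh) and 21 did not pass. The share that passed, 27.6%, was close to the 27.8% of all 12672 genes tested, of which 14% were higher and 13.9% lower, so this share is no result about the list. Their median log2 fold change was 0.03, against 0.02 over all genes tested. With total count scaling the split over all genes was 1428 higher and 2217 lower in place of 1771 and 1757, and that of the fatty acid genes stayed at 4 and 4. Fits that leave out a library keep 1 library in a group. Without an si3m replicate fewer genes passed over all genes too, so the list is described there by its median. That median was 0.18 without siNT replicate 2. Both si3m values lay above both siNT values for 9 of the 29 (32.6% of all genes) and below them for 9 (31.3% of all genes), together 62.1% against 63.9% of all genes.

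**Figure D1:**
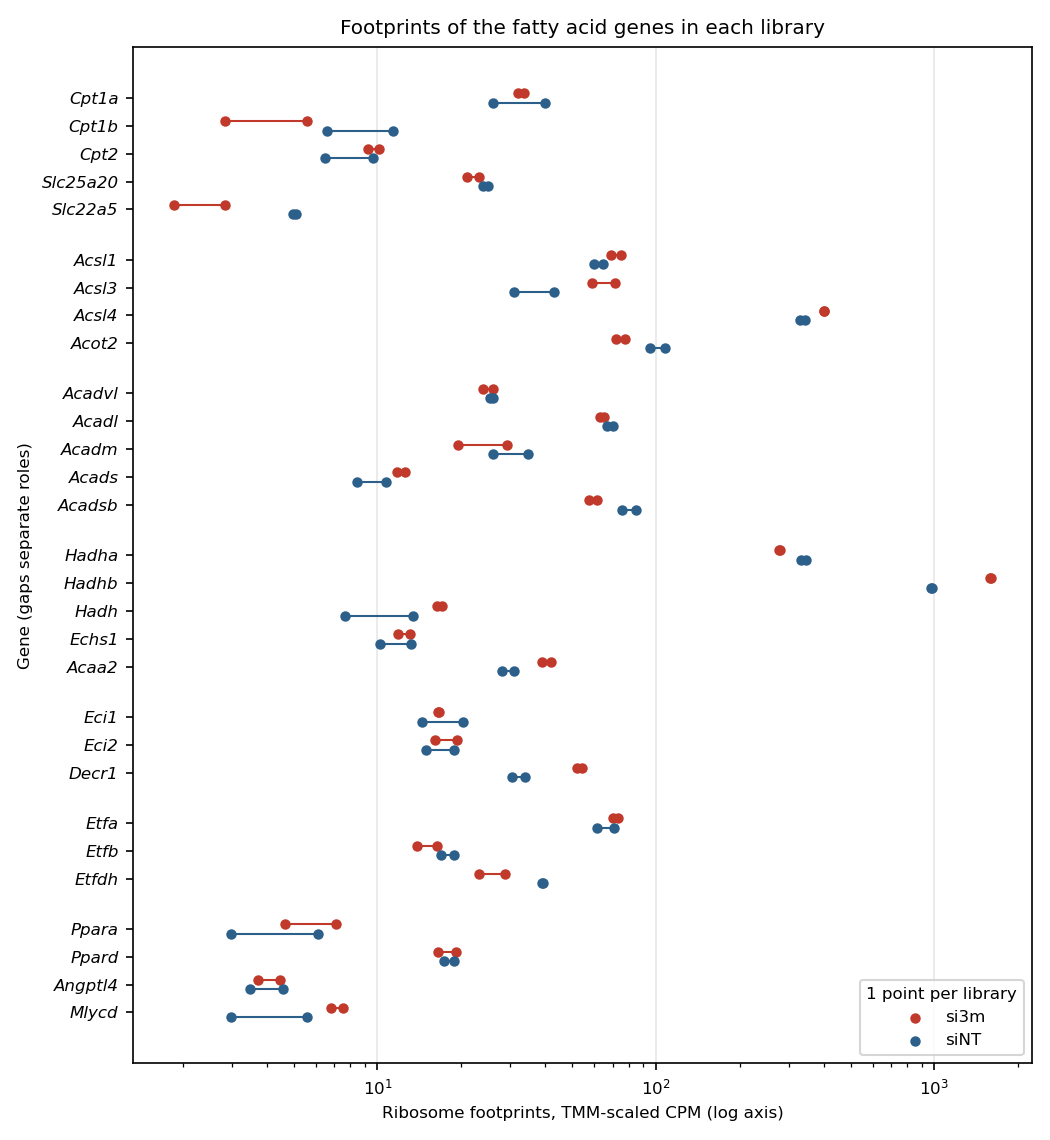
Footprint level of the 29 tested fatty acid genes in each library, as TMM-scaled CPM on a log axis, with 1 point per library and a line joining the 2 libraries of a group (si3m red and upper, siNT blue and lower). The groups stand apart for Hadhb (1599 and 1578 in si3m, 977 and 969 in siNT), while those of Cpt1a overlap.

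The smallest adjusted p belonged to a subunit of the mitochondrial trifunctional protein, the membrane-bound complex that carries out the last steps of long-chain beta-oxidation and is built from an alpha subunit (Hadha, hydratase and hydroxyacyl-CoA dehydrogenase) and a beta subunit (Hadhb, thiolase). The subunits moved in opposite directions. Hadhb, on a scale of CPM adjusted with TMM factors that is used from here on, had 1599 and 1578 CPM in si3m against 977 and 969 CPM in siNT. Hadha had 276 and 278 CPM in si3m against 347 and 333 CPM in siNT. In neither gene did the groups overlap, and the replicates lay close together. Hadhb rose 1.63-fold (log2 0.71, SE 0.0375, 95% interval 0.63 to 0.79, edgeR adjusted p = 1.13e-09), and Hadha fell 1.23-fold (log2 -0.30, SE 0.0566, 95% interval -0.42 to -0.18, adjusted p = 0.000975). Both calls held in all 13 alternative settings, with adjusted p between 2.75e-74 and 2.78e-08 for Hadhb and between 8.12e-05 and 0.00311 for Hadha.

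The genes lie head to head in the rat genome. Their promoter windows (250 bases before to 50 after each annotated start, from RefSeq, build GRCr8) are shown because the opposite changes come from genes whose windows share 200 bases, with annotated starts 301 bases apart. Each is written 5′ to 3′ on its own strand, and capitals mark the stretch that both windows hold, which reads as the reverse complement in the other. Hadhb lies at chr6:31907451-31907750 on the minus strand and Hadha at chr6:31907551-31907850 on the plus strand.
Hadhb: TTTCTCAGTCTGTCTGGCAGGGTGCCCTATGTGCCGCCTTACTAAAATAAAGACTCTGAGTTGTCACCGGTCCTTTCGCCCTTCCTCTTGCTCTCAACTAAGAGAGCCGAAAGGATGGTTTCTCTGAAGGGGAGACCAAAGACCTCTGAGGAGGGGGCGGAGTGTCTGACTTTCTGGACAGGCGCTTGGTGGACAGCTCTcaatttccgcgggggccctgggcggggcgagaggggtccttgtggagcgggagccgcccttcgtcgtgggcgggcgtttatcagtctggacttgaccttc
Hadha: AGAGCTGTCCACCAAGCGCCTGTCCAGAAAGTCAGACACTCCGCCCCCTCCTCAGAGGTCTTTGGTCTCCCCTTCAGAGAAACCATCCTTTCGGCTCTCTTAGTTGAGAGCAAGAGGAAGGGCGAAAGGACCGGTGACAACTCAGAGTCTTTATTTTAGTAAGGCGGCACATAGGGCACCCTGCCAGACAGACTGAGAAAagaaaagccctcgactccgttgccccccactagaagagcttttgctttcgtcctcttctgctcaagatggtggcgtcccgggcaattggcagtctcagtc

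Within each library, the count of Hadhb divided by that of Hadha was 5.80 and 5.67 in si3m and 2.81 and 2.91 in siNT. The ratio was 2.01 times as high in si3m, at 5.74 ± 0.0941 in si3m and 2.86 ± 0.0706 in siNT (SD, n = 2 each; exact two-sided permutation p = 0.333, the smallest that 2 against 2 libraries allow). It does not depend on the scaling of the libraries, but being a ratio of raw counts it says nothing of the proportion of the proteins. Hadhb supplied 52.2% ± 0.496 of the counts of the 34 genes in si3m and 40.2% ± 0.0025 in siNT. All 34 together took 0.295% ± 0.00353 of the library total in si3m and 0.248% ± 0.00101 in siNT, and without Hadhb they took 0.141% ± 0.000224 in si3m and 0.148% ± 0.000596 in siNT (SD, n = 2 each). The larger share of the list in si3m was therefore carried by Hadhb.

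**Figure D2:**
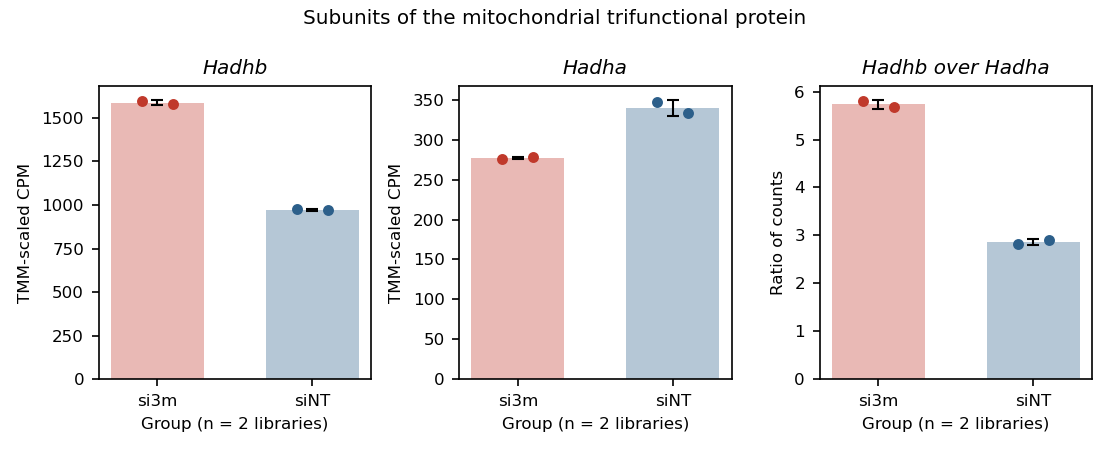
Footprints of Hadhb and of Hadha (TMM-scaled CPM) and the ratio of their counts in si3m and siNT; bars are means, error bars SD and points the 2 libraries of each group. Hadhb is higher and Hadha lower in si3m, and the ratio is 5.74 in si3m against 2.86 in siNT.

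Uptake and transport came next. Cd36, the fatty acid translocase of the plasma membrane, had deposited counts of 4 and 0 in si3m and 2 and 2 in siNT. Fabp3, the fatty acid binding protein typical of heart muscle, had 0 and 6 counts in si3m and 0 in both siNT libraries. Both genes were at or under the 6 counts (3 fragments, since most counts are even) that a count of 0 allows, equal to between 0.691 and 1.56 CPM, so no difference was detectable at this depth. Slc22a5, the carnitine importer, had 2.83 and 1.86 CPM in si3m and 4.98 and 5.08 CPM in siNT. The groups did not overlap, yet the difference did not pass (log2 -1.08, 95% interval -2.22 to 0.06, edgeR adjusted p = 0.15), with 24 and 12 counts in si3m and 20 in each siNT library.

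Carnitine palmitoyltransferase 1, the gate of mitochondrial entry, has a broadly expressed isoform, Cpt1a, and a muscle isoform, Cpt1b. Cpt1a had 32 and 33.7 CPM in si3m and 40.1 and 25.9 CPM in siNT. The si3m values lay inside the siNT range (log2 -0.01, 95% interval -0.44 to 0.42, edgeR adjusted p = 0.983), though without siNT replicate 1 the log2 value was 0.35 (adjusted p = 0.265). Cpt1b had 2.83 and 5.57 CPM in si3m and 11.4 and 6.61 CPM in siNT, lower in both si3m libraries. It missed the threshold (log2 -1.13, 95% interval -2.08 to -0.18, not adjusted for the number of genes; adjusted p = 0.074). The call varied with the libraries and the settings. With all 4 libraries, Cpt1b passed with no low-count filter (adjusted p = 0.0347), with thinned counts (adjusted p = 0.0195) and with counts halved (adjusted p = 0.0431). It also passed without si3m replicate 2 (log2 -1.66, adjusted p = 0.0385) and without siNT replicate 2 (log2 -1.47, adjusted p = 0.00555), and not without si3m replicate 1 (log2 -0.68, adjusted p = 0.419) or siNT replicate 1 (log2 -0.67, adjusted p = 0.382).

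The genes of the inner-membrane steps did not pass either. Slc25a20, which exchanges acylcarnitine for carnitine, had 23.1 and 21.0 CPM in si3m and 23.9 and 24.9 CPM in siNT (log2 -0.14, 95% interval -0.58 to 0.30). Cpt2, which turns acylcarnitine back into acyl-CoA, had 10.1 and 9.28 CPM in si3m and 6.47 and 9.65 CPM in siNT (log2 0.27, 95% interval -0.43 to 0.97). Of 7 genes of entry and carnitine transport, then, 5 were tested and none passed by edgeR, where 27.8% of all genes did. At an unadjusted p under 0.05 there was 1, Cpt1b, where 2450 of all 12672 genes tested were higher and 2433 lower. DESeq2 called 0 of the tested entry and transport genes for which it gave an adjusted p. With so few genes in a role, nothing is read from these shares here or below.

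Among the enzymes that activate fatty acids or release them again, 3 of 4 passed (27.8% of all genes). Acsl3, a long-chain acyl-CoA synthetase of the endoplasmic reticulum and lipid droplets, had 58.9 and 71.2 CPM in si3m and 43.1 and 31.0 CPM in siNT. Its groups did not overlap, and it rose 1.75-fold (log2 0.81, SE 0.169, edgeR adjusted p = 0.00201). In the GRCr8 annotation Acsl3 overlaps the predicted gene LOC102551819, whose own row did not move with it (93.5 ± 0.72 CPM in si3m and 94.5 ± 0.765 CPM in siNT; SD, n = 2 each). Fabp3, Acadvl and Ppara also overlap a gene with its own row. How reads in such overlaps were counted is not given, so a steady neighbour does not settle where they went.

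Acsl4, the synthetase that prefers arachidonic acid and is known for its part in ferroptosis, had 400 and 403 CPM in si3m against 329 and 342 CPM in siNT. The rise was small but larger than the spread, 1.2-fold (log2 0.26, SE 0.0553, edgeR adjusted p = 0.00237). Acsl1, the main synthetase feeding oxidation in heart, had 69.1 and 75.2 CPM in si3m and 64.7 and 60.0 CPM in siNT and did not pass (log2 0.21, 95% interval -0.05 to 0.47). The count ratio of Acsl3 to Acsl1 was 0.852 and 0.947 in si3m and 0.665 and 0.517 in siNT, without overlap (exact two-sided permutation p = 0.333, the smallest possible). As Acsl1 did not pass, this ratio restates the rise of Acsl3. Levels of 63.9% of all genes did not overlap either, so nothing further is read from it.

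Acot2, a mitochondrial thioesterase that releases free fatty acids from acyl-CoA, went the other way, with 71.8 and 77.7 CPM in si3m and 95.6 and 108 CPM in siNT. It fell 1.36-fold (log2 -0.45, SE 0.108, edgeR adjusted p = 0.00573), a call lost without si3m replicate 1 (log2 -0.38, adjusted p = 0.0538). Acot1, its cytosolic paralog of similar sequence, also passed as lower (log2 -1.26, adjusted p = 0.026; chosen after its value was seen), and reads could be shared between them, so the separate counts are uncertain.

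The acyl-CoA dehydrogenases take the opening step of each round, sorted by chain length, and 1 of 5 passed (27.8% of all genes). Acadvl, for very long chains, had 24.0 and 26.0 CPM in si3m and 25.9 and 25.4 CPM in siNT (log2 -0.04, 95% interval -0.46 to 0.38). Acadl, for long chains, had 65.0 and 63.1 CPM in si3m and 70.2 and 66.6 CPM in siNT (log2 -0.09, 95% interval -0.35 to 0.16). Acadm, for medium chains, had 29.2 and 19.5 CPM in si3m and 34.8 and 25.9 CPM in siNT (log2 -0.31, 95% interval -0.80 to 0.18). In these the differences were within or close to the spread of the replicates, and Acads, for short chains, at 12.6 and 11.8 CPM in si3m and 8.46 and 10.7 CPM in siNT, did not pass either (log2 0.35, 95% interval -0.26 to 0.96).

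Acadsb, the short and branched chain dehydrogenase best known for isoleucine breakdown, had 57.7 and 61.3 CPM in si3m and 85.1 and 75.7 CPM in siNT. It fell 1.35-fold with no overlap (log2 -0.44, SE 0.121, edgeR adjusted p = 0.0133). The call was lost without si3m replicate 1 (log2 -0.38, adjusted p = 0.104) and without siNT replicate 1 (log2 -0.35, adjusted p = 0.0779).

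Of the 3 matrix enzymes that complete the shorter rounds, none passed by edgeR or DESeq2 (27.8% of all genes passed by edgeR). At an unadjusted p under 0.05 there were 2, Hadh and Acaa2, where 2450 of all 12672 genes tested were higher and 2433 lower. Counted together with Hadha and Hadhb, 2 of 5 genes of these later steps passed by edgeR (40%). Hadh, the hydroxyacyl-CoA dehydrogenase for shorter chains, had 16.3 and 17 CPM in si3m and 13.4 and 7.62 CPM in siNT (log2 0.66, edgeR adjusted p = 0.107), and passed only when siNT replicate 1 was left out (log2 1.13, adjusted p = 0.00436). Acaa2, the thiolase for shorter chains, had 38.9 and 42.1 CPM in si3m and 27.9 and 31.0 CPM in siNT, without overlap, and just missed the threshold (log2 0.46, SE 0.169, adjusted p = 0.0566). Acaa2 passed without siNT replicate 2 (log2 0.54, adjusted p = 0.0405), with robust quasi-likelihood (adjusted p = 0.0484) and with a stricter filter of at least 50 counts in 2 libraries (adjusted p = 0.044). Echs1, the hydratase for shorter chains, had overlapping values of 11.9 and 13.1 CPM in si3m and 10.2 and 13.2 CPM in siNT.

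Unsaturated chains need extra enzymes to move or remove double bonds. Decr1, the mitochondrial dienoyl-CoA reductase, had 52.0 and 54.1 CPM in si3m and 30.4 and 34 CPM in siNT. It rose 1.65-fold without overlap (log2 0.72, SE 0.155, edgeR adjusted p = 0.00245) and passed in all 13 alternatives. The enoyl-CoA isomerases did not pass and overlapped between groups, with 16.5 and 16.7 CPM in si3m and 14.4 and 20.3 CPM in siNT for Eci1, and 19.3 and 16.1 CPM in si3m and 14.9 and 18.8 CPM in siNT for Eci2.

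The electron transfer flavoprotein (Etfa and Etfb) collects electrons from the dehydrogenases and passes them to Etfdh, which reduces ubiquinone. Etfdh had 28.7 and 23.2 CPM in si3m and 39.3 and 39.1 CPM in siNT and fell 1.5-fold (log2 -0.59, SE 0.18, edgeR adjusted p = 0.0231). The call was lost without si3m replicate 2 (log2 -0.44, adjusted p = 0.241) and in DESeq2 (adjusted p = 0.0553). Etfa had 70.2 and 73.2 CPM in si3m and 61.2 and 70.9 CPM in siNT (log2 0.12, 95% interval -0.14 to 0.38), and Etfb had 16.3 and 13.9 CPM in si3m and 16.9 and 18.8 CPM in siNT (log2 -0.24, 95% interval -0.75 to 0.27). The count ratio of Etfdh to Etfa was 0.409 and 0.317 in si3m and 0.642 and 0.552 in siNT, again without overlap (exact two-sided permutation p = 0.333, the smallest possible). As Etfa did not pass, this ratio restates the fall of Etfdh.

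**Figure D3:**
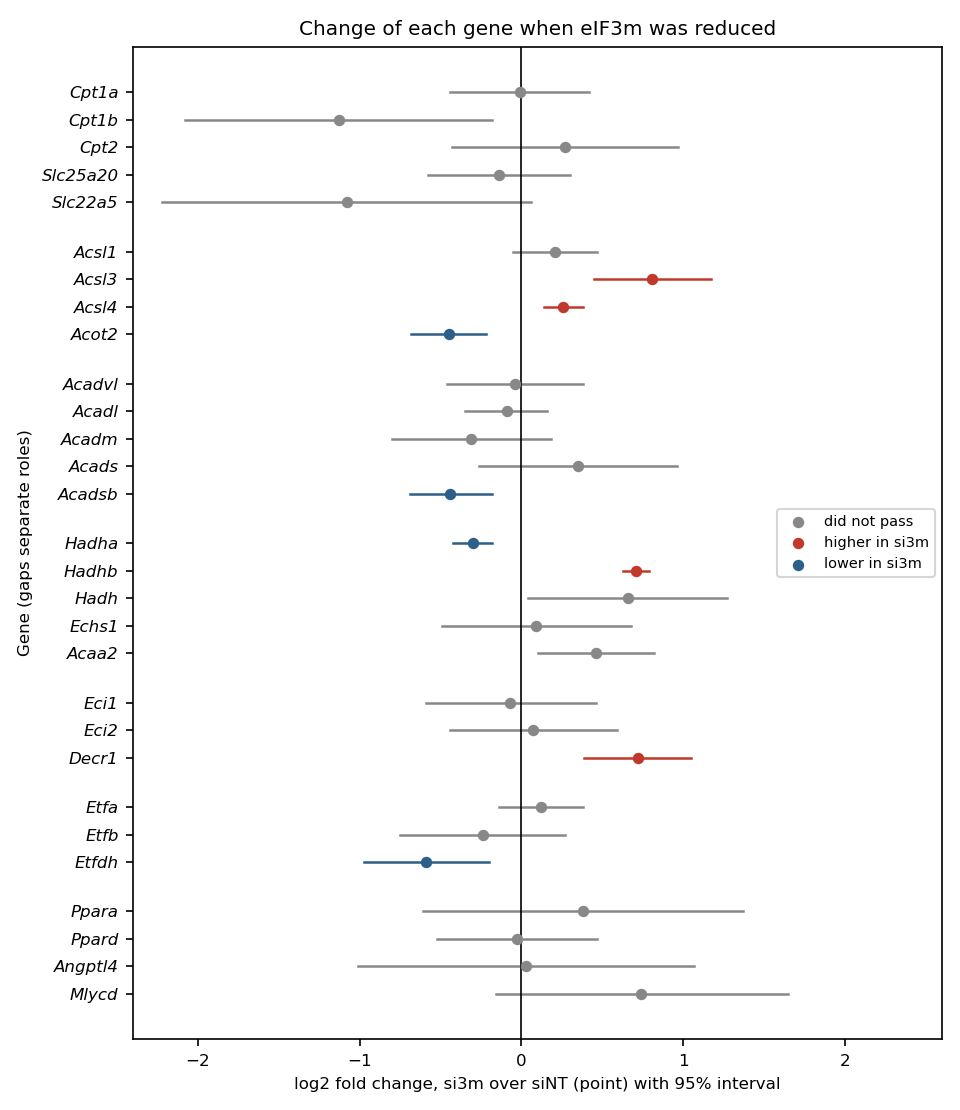
Log2 fold change, si3m over siNT, of the 29 tested genes with its 95% interval, not adjusted for the number of genes, grouped by role. Hadhb (0.71), Acsl3 (0.81), Decr1 (0.72) and Acsl4 (0.26) lie right of 0 and Hadha (-0.30), Acadsb, Acot2 and Etfdh left of it; the intervals of low-count genes such as Cpt1b and Slc22a5 are wide.

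The regulators were thinly covered. Ppargc1a, the coactivator that drives oxidative genes, had 10 and 2 counts in si3m and 6 and 0 in siNT, Pdk4, the kinase that shuts off pyruvate dehydrogenase when fatty acids are burned, had 0 and 2 counts in si3m and 2 and 0 in siNT, and the mitochondrial carrier Ucp3 had 0 in every library. These 3 genes, which are abundant in adult heart or fasting muscle, could not be compared. Ppara, the receptor that drives these genes in heart and liver, had 7.07 and 4.64 CPM in si3m and 2.99 and 6.10 CPM in siNT (log2 0.38, 95% interval -0.61 to 1.37). Ppard, the widely expressed receptor of the family, had 16.5 and 19.2 CPM in si3m and 18.9 and 17.3 CPM in siNT (log2 -0.03, 95% interval -0.52 to 0.47). The groups overlapped for both receptors.

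Angptl4, a secreted inhibitor of lipoprotein lipase and a PPAR target, had 4.47 and 3.71 CPM in si3m and 3.48 and 4.57 CPM in siNT (log2 0.03, 95% interval -1.01 to 1.07). Mlycd, which breaks down malonyl-CoA, the inhibitor of carnitine palmitoyltransferase 1, had 7.54 and 6.81 CPM in si3m and 2.99 and 5.59 CPM in siNT. Its groups did not overlap, but the difference did not pass (log2 0.74, 95% interval -0.16 to 1.65, edgeR adjusted p = 0.218). For genes this low, the intervals leave room for changes in either direction.

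RefSeq promoter windows of 300 bases were found for 29 of the 34 genes and searched on both strands. A direct repeat of AGGTCA with 1 base between, the element bound by PPAR with its partner RXR, was in none of the 29, against 0.0538% of 33465 promoters, and with 1 mismatch allowed it was in that of Acadvl alone, against 0.439%. AAGGTCA, the element of estrogen-related receptors, which contains AGGTCA, was in the window of Hadhb alone (3.45% of the 29, against 4.61% of all). CCAAT was in 10 of 29 windows, Hadha and Acsl3 among them (34.5%, against 37.5% of all), and CACGTG in none, against 6.42%. These matches describe letters only.

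Genes around the pathway were counted in 4 lists. Of 35 tested among other entry, activation and mitochondrial acyl-CoA genes, 5 rose and 9 fell (DESeq2 gave 4 and 6). Together this was 40% against 27.8% of all genes (14% higher and 13.9% lower), with a median log2 of -0.03. No list was tested as a set, so nothing is read from such shares. Slc27a2, a fatty acid transporter and very long chain synthetase, had 6.59 and 5.88 CPM in si3m and 24.9 and 25.4 CPM in siNT and fell 4.01-fold (SE 0.257 on the log2 scale, edgeR adjusted p = 2.65e-05). Dbt, a subunit of branched-chain ketoacid dehydrogenase, fell 1.62-fold (log2 -0.69, adjusted p = 0.000224), whereas Vldlr, a lipoprotein receptor, and Got2, the mitochondrial aspartate aminotransferase, rose 1.21-fold and 1.29-fold (log2 0.28 and 0.37). The median of this list was -0.01 without si3m replicate 1 and -0.08 without si3m replicate 2.

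Of 28 peroxisomal genes tested, 3 were higher and 3 lower, together 21.4% against 27.8% of all genes, with a median log2 of 0.06. The counts were 2 higher and 6 lower with total count scaling and 1 higher and 2 lower in DESeq2, and the median was -0.14 with thinned counts. Catalase (Cat) fell 1.32-fold (log2 -0.40, SE 0.0797, edgeR adjusted p = 0.00134), and Crot, the peroxisomal carnitine octanoyltransferase, fell 1.52-fold (log2 -0.60, adjusted p = 0.00355). Abcd2, a peroxisomal transporter of very long chain acyl-CoA, had 68 and 32 counts in si3m and 4 and 6 in siNT (log2 2.36, adjusted p = 0.00547), and its call was lost without si3m replicate 1 (log2 1.97, adjusted p = 0.178).

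Of lipid storage and synthesis genes, 7 of 35 tested rose and 0 fell by edgeR (DESeq2 gave 5 and 0), 20% in all against 27.8% of all genes (14% higher and 13.9% lower), with a median log2 of 0.21. At an unadjusted p under 0.05 there were 10 higher and 1 lower, where 2450 of all 12672 genes tested were higher and 2433 lower. The 7 were the desaturases Scd, Fads1, Fads2 and Fads3, the elongase Elovl5, the citrate carrier Slc25a1 and the lipid droplet coat protein Plin2, of which Fads2, Elovl5 and Plin2 were chosen after their values were seen. Scd, a stearoyl-CoA desaturase, had 51.1 and 53.8 CPM in si3m and 20.4 and 17.3 CPM in siNT and rose 2.78-fold (log2 1.47, SE 0.176, edgeR adjusted p = 1.22e-05). Its paralog Scd2 (log2 0.05) did not pass. Nor did the synthesis genes Fasn (0.07), Acaca (-0.16) and Acly (0.11), which like Scd2 were chosen after their values were seen. Fads3 and Fads1, of the front-end desaturase family, rose 2.29-fold and 1.62-fold (log2 1.19 and 0.69). Slc25a1, which exports citrate for fatty acid synthesis, had 45.7 and 43.3 CPM in si3m and 14.9 and 22.4 CPM in siNT and rose 2.39-fold (log2 1.26, adjusted p = 0.000231). The count of lower genes was 1 with total count scaling and with the stricter filter.

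Among nuclear, AMPK and pyruvate dehydrogenase genes, 3 of 39 tested rose and 10 fell, together 33.3% against 27.8% of all genes (14% higher and 13.9% lower), with a median log2 of -0.06. Mpc1, a subunit of the mitochondrial pyruvate carrier, had 60.3 and 64.3 CPM in si3m and 140 and 149 CPM in siNT and fell 2.33-fold (log2 -1.22, SE 0.0965, edgeR adjusted p = 1.41e-07). Pdhb, a subunit of pyruvate dehydrogenase, fell 1.78-fold (log2 -0.83, adjusted p = 1.31e-05), and Sirt1, a deacetylase that activates the coactivator made by Ppargc1a, fell 1.93-fold (log2 -0.95, adjusted p = 1.21e-05). The other carrier and pyruvate dehydrogenase complex genes of this list, chosen after their values were seen, did not pass. These were Mpc2 (log2 0.19), Pdha1 (0.09), Dlat (0.26), Dld (-0.14) and Pdhx (0.23). Nrip1, a corepressor of oxidative metabolism, rose 1.65-fold (log2 0.73, adjusted p = 9.64e-05). The median of this list was -0.03 without si3m replicate 1, -0.15 without siNT replicate 1 and -0.10 without siNT replicate 2.

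**Figure D4:**
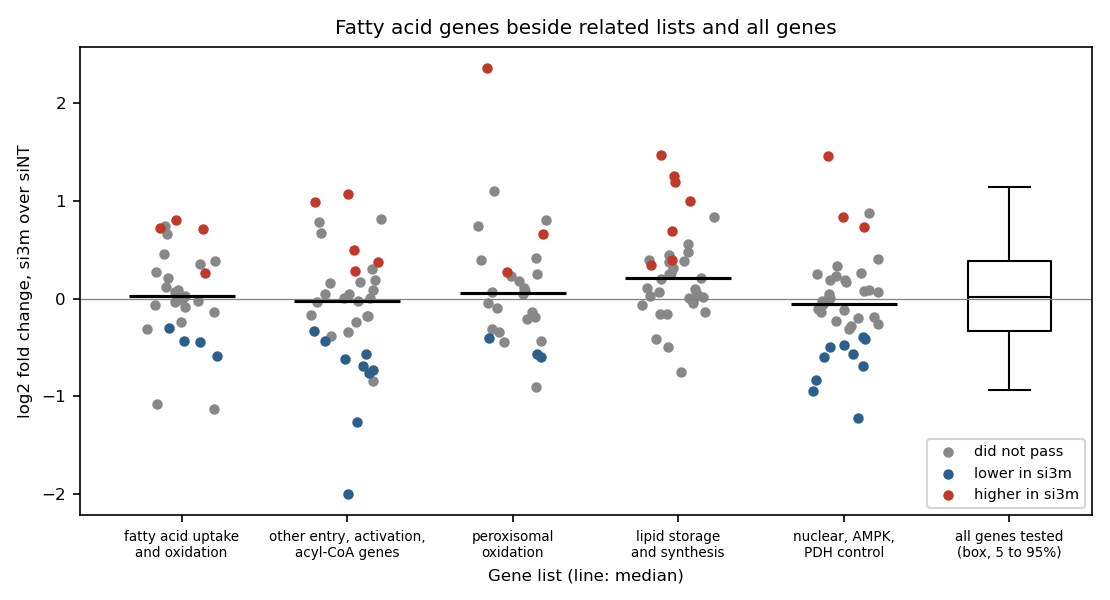
Log2 fold change, si3m over siNT, of each tested gene in the fatty acid list and the 4 lists around it (points, coloured by call; line, median), beside all 12672 genes tested (box: quartiles and median; whiskers: 5 to 95%). The fatty acid genes centre on 0.03, as all genes do on 0.02, and the storage and synthesis list has 7 higher points and no lower one.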

How the data were processed

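The deposited files hold whole-number counts of footprint reads per gene symbol, without normalization. Per the submitters' processing notes, the build was rn6 and the tools were HISAT2 2.2.1, Trimmomatic 0.40, featureCounts, DESeq2 and limma. Which annotation and strand mode served, and what became of multi-mapping reads, is not given in the sources used here, so counts of overlapping or near-identical genes are uncertain. Even numbers made up 94.9% to 97.3% of non-zero counts, so fragments were taken as counts divided by 2, and limits from a count of 0 (3 fragments) cover counting error only. Spreadsheet dates had replaced 27 gene names; those rows stayed in the fit.

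All genes were fitted with edgeR 4.0.16 in R 4.3.3 (TMM scaling, filterByExpr at a minimum count of 10, quasi-likelihood test by glmQLFTest, two-sided, Benjamini-Hochberg adjustment over 12672 genes, threshold 0.05), without replicate number as a block. Fold changes are si3m over siNT, and 95% intervals come from the quasi-likelihood SE. The procedure was tested on simulated data. Within groups, the median chi-square between replicates was 1.48 times counting noise in si3m and 1.4 times in siNT, and libraries were kept as 2 samples. Gene and list symbols were matched by name, with 2 of 235 list and marker entries matched through a RefSeq synonym (GRCr8). That build differs from the files' build, so it served for names, overlaps and promoter sequences only. Named genes outside the 34 are, from each list, up to 4 that passed with the smallest p; further genes of these lists are marked as chosen after their values were seen. The result of 1 such gene is not reported here. The 34 genes and the lists were chosen with earlier results of these data known. Alternatives were DESeq2 1.42.0, other scalings and filters, robust quasi-likelihood, the block, thinned and halved counts, and leaving out each library.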

Additional observations from a re-analysis of the deposited data

How the results depend on the processing

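Over 13 alternatives, Acsl3, Acsl4, Hadha, Hadhb and Decr1 passed in each with the same direction, and the counts over all genes stayed within 1.5 times, at 1213 higher and 1344 lower in DESeq2. Acadsb, Acot2 and Etfdh lost calls as given above, and Cpt1b passed in some settings, also given above. Leaving out each library gave the fatty acid genes a median of -0.04 to 0.18. For the other acyl-CoA genes it gave 3 to 5 higher, 4 to 9 lower and a median of -0.08 to -0.01, for the peroxisomal genes a median of -0.04 to 0.12, and for the control genes 2 to 5 higher, 6 to 9 lower and a median of -0.15 to -0.03. Total count scaling moved the medians of these 3 lists to -0.11, -0.02 and -0.14, with 6 peroxisomal genes lower and 1 storage and synthesis gene lower. The stricter filter gave 1 storage and synthesis gene lower and medians of -0.08 (peroxisomal) and -0.14 (control). The median of the other acyl-CoA genes was 0.02 unfiltered and -0.16 with thinned counts. That of the peroxisomal genes was -0.14 with thinned counts and 0.0031 with counts halved, and DESeq2 called 1 of them higher. The causes of these shifts were not tested.

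Signs turned only in genes that did not pass. Cpt1a was 0.01 with no low-count filter and with the replicate block, Eci2 -0.0049 and Angptl4 -0.05 with total count scaling, and Echs1 -0.13, Eci1 0.02 and Ppard 0.04 with thinned counts. Leaving out each library gave -0.28 to 0.35 for Cpt1a, -0.08 to 0.03 for Acadvl, -0.15 to 0.24 for Angptl4, -0.08 to 0.3 for Echs1, -0.29 to 0.21 for Eci1, -0.08 to 0.26 for Eci2, -0.04 to 0.98 for Ppara and -0.12 to 0.1 for Ppard. The replicate numbers pair nothing in the labels. Deviations of same-numbered libraries correlated at -0.0228 over 12672 genes, and the block gave 1851 higher and 1843 lower genes, with 4 and 4 fatty acid genes. Cpt1b, Slc22a5, Ppara, Angptl4 and Mlycd had few counts and wide intervals.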
